A study of Homo sapiens with 24 samples.

Results

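Untreated PEO4 cells were compared with untreated PEO1 BRCA+ cells across all genes, using 6 RNA-seq libraries of the 24 in the series. The members were chosen by their labels alone: the 3 untreated libraries of PEO4 and the 3 of PEO1 from the pair of lines labelled B. PEO1 and PEO4 are adherent high-grade serous ovarian carcinoma lines from 1 patient, established before and after resistance to cisplatin and other drugs developed. The study concerned G-quadruplexes, structures that runs of guanine can form in DNA, and drug resistance, and its RNA-seq compared gene expression between the lines of each pair. PEO1 BRCA+, labelled BRCA2+ for genotype, is a PEO1 line with a spontaneous reversion mutation that restored BRCA2 function. PEO4 is labelled WT and also has a functional BRCA2. Both lines were grown in RPMI medium with Glutamax and fetal bovine serum, received no drug, and were trypsinised before RNA extraction, and polyadenylated RNA was sequenced. Each group is 1 line sampled in 3 replicates, which the series describes as biological without saying how they were separated. The p-values measure the spread between these samples, and not the spread between tumours or between independent resistant isolates. The other untreated pair, labelled A, holds PEO4 and a BRCA2-deficient PEO1 in 6 libraries, and was used only to show where the line difference of pair B differed.

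BRCA2 acts in homologous recombination, the repair of DNA breaks from an intact copy, and its loss makes cells sensitive to platinum adducts that crosslink DNA. Reversion mutations restore the reading frame and are a known route to platinum resistance. With BRCA2 functional in both lines, other differences between them can be read in their RNA: drug carriers, damage repair, interferon-driven genes, and the transcription factors and adhesion genes that set the identity of an epithelial cell.

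The libraries held between [s:18699929] and [s:22375644] counts on genes. Counts were scaled with TMM factors to counts per 1000000 (CPM), and [s:15726] of [s:28277] genes had enough counts to be tested. [s:6182] genes had 0 counts in all 6 libraries. A gene was called higher or lower in PEO4 where its adjusted p (Benjamini-Hochberg) was under 0.05 and its log2 fold change lay beyond 1 in size. By this rule 1871 genes were higher (11.9% of those tested) and 1857 were lower (11.8%), which is the background against which each gene group below is read. The median log2 fold change of all tested genes was 0.01. The libraries of the 2 lines did not overlap for 70.8% of all tested genes, so a lack of overlap was common. On the log2 CPM scale, Pearson's r across genes was 0.994 between each pair of PEO1 BRCA+ libraries, between 0.985 and 0.991 within PEO4, and between 0.874 and 0.897 across the lines. Genes are not independent replicates, so these r values only describe the libraries. PEO4 varied more than PEO1 BRCA+, with a median SD of log2 CPM of 0.142 against 0.0999. Replicate 2 of PEO4 stood over 2-fold above both other PEO4 libraries for 39 of 10792 genes whose mean log2 CPM was at least 3, and over 2-fold below both for 36. Replicate 3 of PEO4 did so for 6 and 32 genes, and replicate 1 for 0 and 3. No PEO1 BRCA+ library did so for more than 4 genes in either direction. Between 20.8 and 26.4% of the exon bases of PAX8, ITGA4 and PSCA, named below, are shared with another gene.

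**Figure D1:**
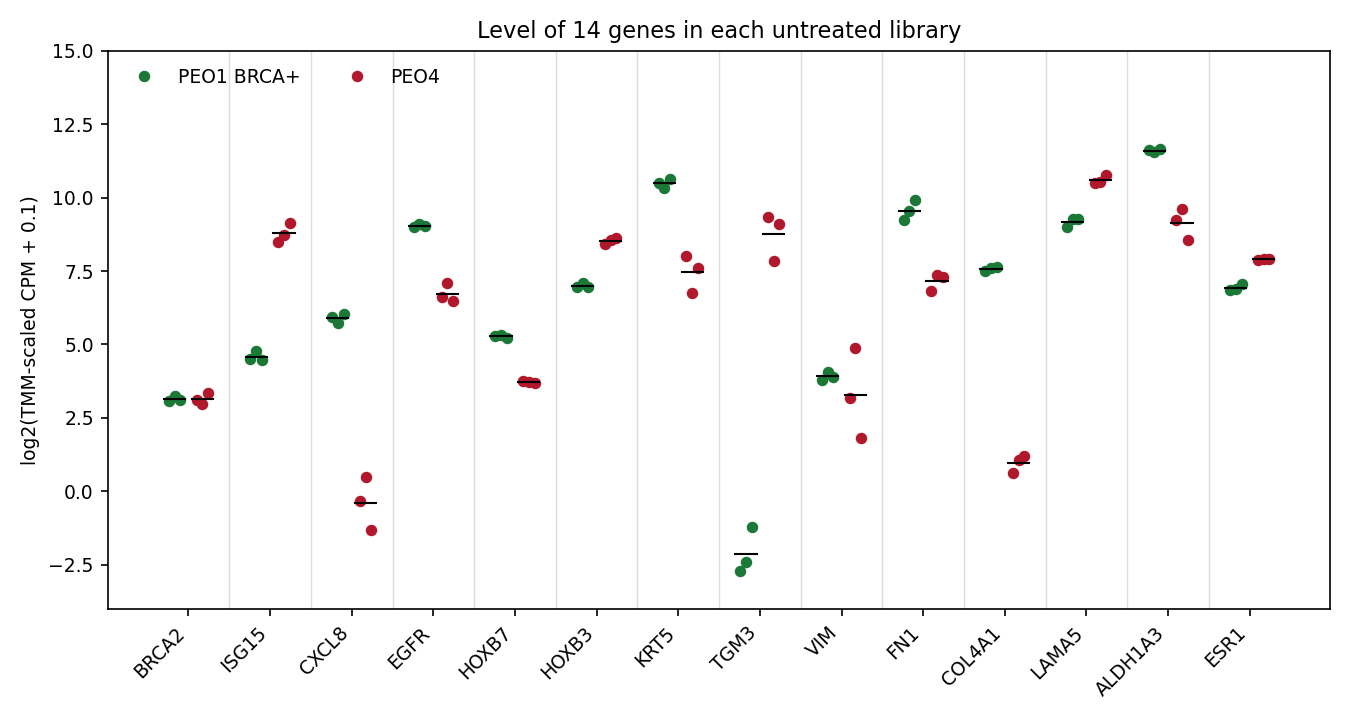
Level of 14 genes in each untreated library, as log2 of TMM-scaled CPM plus 0.1. Each point is 1 library, green for PEO1 BRCA+ and red for PEO4, and black lines are means of 3 libraries. BRCA2 and VIM overlap between the lines, and the other 12 genes do not. Of all tested genes, 70.8% do not overlap. VIM (3.44 to 29.5 CPM) has the widest spread of these genes among the PEO4 libraries.

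BRCA2, the gene that sets this PEO1 line apart, was measured first. It had 8.37, 9.43 and 8.61 CPM in PEO1 BRCA+ against 8.46, 7.83 and 10.02 CPM in PEO4. The groups overlapped, and their means differed by less than the replicates of each line did (log2 fold change -0.01, standard error 0.133, adjusted p = 0.97; 2-sided exact permutation test p = 0.9, the smallest possible with groups of 3 being 0.1). The mutations themselves were not analysed here. Listed homologous recombination genes were mostly within the fold limit, with log2 fold changes from -0.99 to 1.42. Of 30 tested, 1 was called higher and 0 lower by edgeR (7 were lower at an unadjusted p under 0.05, and DESeq2 called 0 lower), and the median log2 fold change was 0.13. The number called lower was 1 without replicate 3 of PEO1 BRCA+, without replicate 1 or without replicate 3 of PEO4. The called gene was SWI5, a recombination repair factor that works with SFR1, with 7.96, 7.62 and 7.53 CPM in PEO1 BRCA+ against 21.5, 22.1 and 18.3 CPM in PEO4 (log2 fold change 1.42, standard error 0.113, adjusted p = 4.9e-07). PALB2, which links BRCA1 to BRCA2, differed by 0.40 and BRCA1 by -0.31 on the log2 scale (adjusted p = 9.3e-04 and 0.00115). These counts cover the listed genes only. Outside the list, the repair genes EXO1 and MCM8 were called lower and TONSL was called higher.

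Genes that remove or tolerate platinum adducts were likewise mostly within the fold limit, with log2 fold changes from -0.70 to 1.32. Of 25 tested, 1 was called higher and 0 lower by edgeR (10 were lower at an unadjusted p under 0.05, and DESeq2 called 0 lower), with a median log2 fold change of 0.01. REV3L, the catalytic subunit of the translesion polymerase zeta, had 64.3, 68.3 and 62.5 CPM in PEO1 BRCA+ against 172, 111 and 202 CPM in PEO4. All 3 PEO4 libraries lay above all PEO1 BRCA+ libraries (log2 fold change 1.32, standard error 0.231, adjusted p = 0.00406). ERCC1, a nucleotide excision repair nuclease subunit, differed by -0.21 (adjusted p = 0.0151). The translesion polymerase gene POLH and the damage-recognition gene XPA had log2 fold changes of 0.83 and 0.88, under the fold limit (adjusted p = 7.3e-06 and 5.0e-04).

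Among platinum carriers and thiol genes, several drug carriers differed and the main copper carriers stayed within the fold limit. Of 41 tested, 1 was higher (2.44%) and 6 lower (14.6%), with a median log2 fold change of -0.11. The background was 11.9% higher and 11.8% lower. SLC31A1, the main copper and cisplatin importer, had 43.5 ± 1.57 CPM in PEO1 BRCA+ against 34.99 ± 1.11 CPM in PEO4, with SD over 3 libraries each (log2 fold change -0.31, adjusted p = 0.00248). The copper-exporting ATPases ATP7A and ATP7B differed by 0.70 and -0.30 (adjusted p = 0.00107 and 0.12), and the glutathione transferase gene GSTP1 by 0.15 (adjusted p = 0.0564). SLC22A3, an organic cation carrier, had 107, 124 and 101 CPM in PEO1 BRCA+ against 3.33, 21.2 and 4.49 CPM in PEO4. All PEO4 libraries were far below PEO1 BRCA+, but replicate 2 of PEO4 was several times above the other two (log2 fold change -3.54, standard error 0.7499, adjusted p = 0.0133). The efflux pump gene ABCC2 had 2.91, 3.14 and 2.67 CPM in PEO1 BRCA+ against 0.416, 0.536 and 0.299 CPM in PEO4 (log2 fold change -2.79, adjusted p = 4.5e-06), and ABCG2 fell from 73 counts over the PEO1 BRCA+ libraries to 4 over those of PEO4 (adjusted p = 1.6e-05). The related pump gene ABCC3 was the member that was higher, with 55.4, 56.6 and 64.6 CPM in PEO1 BRCA+ against 144, 86.2 and 177 CPM in PEO4 (log2 fold change 1.203, standard error 0.2895, adjusted p = 0.0171). The ABCC3 call was lost when replicate 1 or 2 of PEO1 BRCA+, or replicate 1 or 3 of PEO4, was left out.

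Interferon response genes were higher in PEO4 as a group. Type I interferon switches on effectors that block viral entry, translation and budding. Of 46 tested members, 43 were called higher and 0 lower by edgeR (0 were lower at an unadjusted p under 0.05, and DESeq2 called 0 lower), against the background of 11.9% higher, and their median log2 fold change was 2.74. ISG15, a ubiquitin-like modifier, had 22.7, 27.1 and 21.9 CPM in PEO1 BRCA+ against 359, 423 and 564 CPM in PEO4 (log2 fold change 4.23, standard error 0.202, adjusted p = 3.8e-06). The lines were well separated, with replicate 3 of PEO4 highest. MX1, a GTPase that traps viral ribonucleoproteins, rose from 10.001 ± 4.48 CPM in PEO1 BRCA+ to 249 ± 82.3 CPM in PEO4 (SD, n = 3 each; log2 fold change 4.63, adjusted p = 8.1e-04). IFIT1, which binds foreign RNA caps, rose from 4.23 ± 1.13 CPM to 169.8 ± 35.3 CPM (log2 fold change 5.32, adjusted p = 8.9e-06).

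The largest interferon differences were in genes close to silent in PEO1 BRCA+. BST2, the tether that holds budding virus at the cell surface, had 5 counts over the 3 PEO1 BRCA+ libraries and 4162 over those of PEO4 (log2 fold change 9.66, standard error 0.8703, adjusted p = 5.4e-04). IFITM1, which blocks viral fusion, had 0.306, 0.487 and 0.234 CPM in PEO1 BRCA+ against 93.8, 96.1 and 195 CPM in PEO4 (log2 fold change 8.51, adjusted p = 2.5e-04). IFI44L, an interferon-induced gene of the same programme, had 0, 0.221 and 0.0936 CPM in PEO1 BRCA+ against 17.8, 15.7 and 37.3 CPM in PEO4 (log2 fold change 7.67, adjusted p = 4.9e-04). LGALS3BP, a secreted galectin-binding glycoprotein in this list, rose from 543 ± 30.2 CPM to 2198 ± 331 CPM (log2 fold change 2.02, adjusted p = 2.6e-08). GBP1, GBP2 and IRF1 were the 3 members not called, named here after their values were seen, with log2 fold changes of 0.71, 0.77 and 0.79 and adjusted p-values of 4.3e-04, 0.0151 and 4.5e-05. Replicate 3 of PEO4 was the highest PEO4 library for 43 of the 46 members, against 6049 of 15726 tested genes, and the summed level of the list was 8944 CPM there, 6114 and 6263 CPM in the other PEO4 libraries and between 1218 and 1415 CPM in PEO1 BRCA+. Each PEO4 library was above every PEO1 BRCA+ library in this sum.

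**Figure D2:**
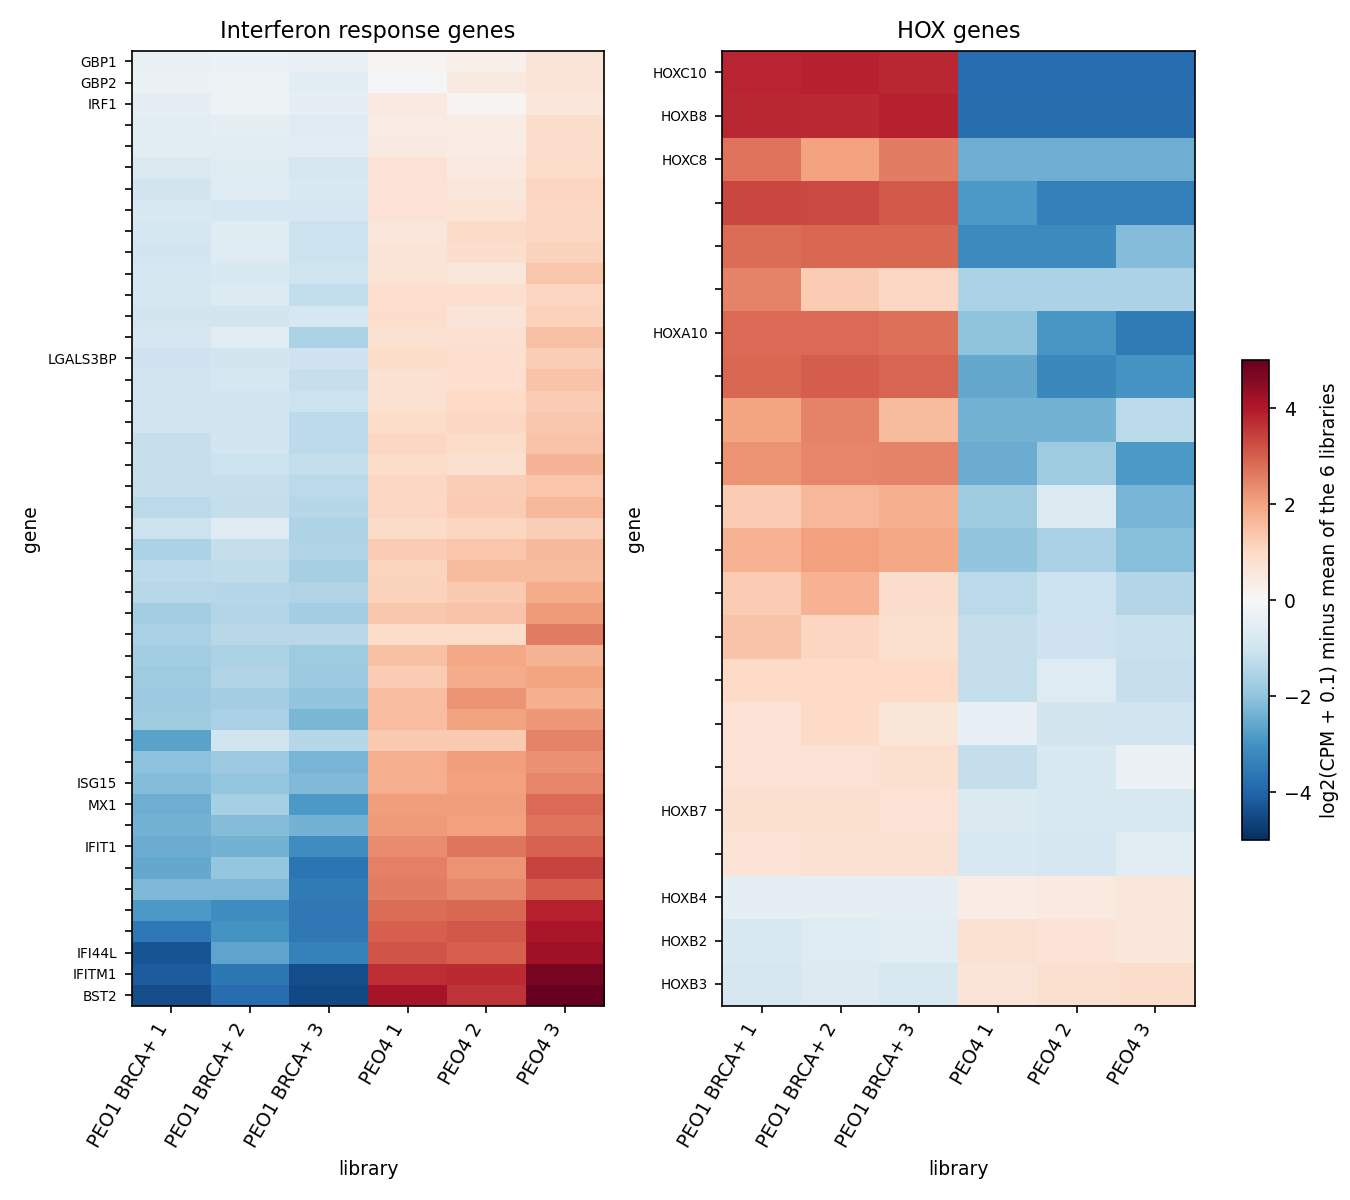
Interferon response genes (left, 45 genes) and HOX genes (right, 22 genes) in the 6 libraries, with 1 interferon gene left out and names on the rows the text describes, as log2 of CPM plus 0.1 minus the mean of the 6 libraries, ordered by fitted fold change. Red is above and blue below the gene's mean. The interferon genes are mostly red in the 3 PEO4 libraries and deepest in replicate 3, and all tested HOX genes apart from HOXB2, HOXB3 and HOXB4 are blue in PEO4.

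MHC class I genes present peptides to T cells and are partly interferon-driven. Of 16 tested, 5 were called higher and 0 lower by edgeR (2 were lower at an unadjusted p under 0.05, and DESeq2 called 0 lower), with a median log2 fold change of 0.33. HLA-C, a class I heavy chain, had 208, 218 and 226 CPM in PEO1 BRCA+ against 606, 624 and 686 CPM in PEO4 (log2 fold change 1.56, standard error 0.0733, adjusted p = 6.7e-09). The low-level HLA-F had a log2 fold change of 2.12 (adjusted p = 1.9e-04). In HLA-C all PEO4 libraries lay above all PEO1 BRCA+ libraries. B2M, the light chain that all class I molecules share, changed little, at 0.33 (adjusted p = 0.0268). The HLA genes are near-identical to each other and polymorphic, so reads may have been split among them by the counting.

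Chemokines and cytokines went mainly the other way. Of 17 tested, 2 were higher and 10 lower, against 11.8% lower in the background, and the median log2 fold change was -1.86. CXCL8 (interleukin 8), a neutrophil attractant, had 60.4, 53.3 and 65.98 CPM in PEO1 BRCA+ against 0.693, 1.29 and 0.299 CPM in PEO4 (log2 fold change -6.31, standard error 0.268, adjusted p = 4.0e-07). CXCL1, which acts on the same receptor, had 86.02, 67.05 and 109 CPM in PEO1 BRCA+ against 1.29, 2.63 and 0.549 CPM in PEO4 (log2 fold change -5.89, adjusted p = 2.2e-04). IL6, the acute-phase cytokine, had 15.2, 11.6 and 18.3 CPM in PEO1 BRCA+ against 1.66, 2.89 and 1.35 CPM in PEO4 (log2 fold change -2.94, adjusted p = 1.3e-05). In all 3 genes every PEO4 library was below every PEO1 BRCA+ library by several fold. CCL2, a monocyte attractant, had 61 counts over the PEO1 BRCA+ libraries and 0 in PEO4, and was at least 6.45-fold lower (adjusted p = 3.6e-05, bound at 3 counts per PEO4 library). The 2 members that were higher, TNFSF10 (TRAIL) and IL15, had log2 fold changes of 1.24 and 1.06 (adjusted p = 2.8e-04 and 6.0e-05). The call of IL15 was lost without replicate 1 or without replicate 3 of PEO1 BRCA+.

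Receptors for interleukin 1 and their relatives were lower. Their genes lie side by side on chromosome 2, in a stretch of 9 consecutive tested protein-coding genes from 101345550 to 102711355 (GRCh38). The stretch was picked because all its genes were called lower, and it also holds CREG2, RFX8, MAP4K4 and SLC9A2. Its median log2 fold change was -2.93. IL18R1 shares exon bases with IL1RL1, so their values are not independent. IL1R1, the signalling receptor, had 14.6, 14.7 and 13.4 CPM in PEO1 BRCA+ against 2.59, 2.09 and 2.59 CPM in PEO4 (log2 fold change -2.55, standard error 0.143, adjusted p = 2.8e-08). IL1R2, a decoy that binds the ligand without signalling, had 44.1, 44.7 and 53.7 CPM in PEO1 BRCA+ against 2.26, 2.79 and 1.596 CPM in PEO4 (log2 fold change -4.42, adjusted p = 2.1e-09). IL18R1, a receptor chain for interleukin 18, and IL1RL1, the receptor for interleukin 33, had log2 fold changes of -3.66 and -2.997 (adjusted p = 9.5e-09 and 1.1e-07).

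HOX genes, the clustered transcription factors that set position along the body axis and pattern the Müllerian tract, were mostly lower in PEO4. Of 22 tested, 2 were called higher and 19 lower. The median log2 fold change was -3.94, or -3.26 with the genes that had at most 3 counts per library in 1 line set at their bound. HOXC10 had 19.5, 20.1 and 19.3 CPM in PEO1 BRCA+, and HOXB8 had 18.5, 18.3 and 19.7 CPM. Both had 0 counts in every PEO4 library and were at least 131-fold and at least 126-fold lower (adjusted p = 2.0e-09 and 2.4e-09), and HOXC8 at least 19.04-fold lower (adjusted p = 2.9e-06), with the bound set at 3 counts per PEO4 library. HOXA10, a uterine patterning gene, fell from 502 counts over the PEO1 BRCA+ libraries to 5 over those of PEO4 (log2 fold change -6.48, adjusted p = 4.0e-08). HOXB7 was expressed in both lines at 38.8, 39.8 and 37.5 CPM in PEO1 BRCA+ against 13.5, 13.03 and 12.9 CPM in PEO4 (log2 fold change -1.56, standard error 0.0818, adjusted p = 1.6e-08).

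At the 3′ end of the HOXB cluster the direction was opposite. HOXB2 had 146, 156 and 165 CPM in PEO1 BRCA+ against 414, 399 and 356 CPM in PEO4 (log2 fold change 1.32, adjusted p = 4.2e-08), and HOXB3 had 123, 136 and 124 CPM in PEO1 BRCA+ against 339, 379.8 and 396 CPM in PEO4 (log2 fold change 1.54, adjusted p = 1.3e-08). In both genes all PEO4 libraries lay above all PEO1 BRCA+ libraries. The summed level of all HOX genes was higher in PEO4, unlike most members. It was between 859 and 903 CPM in PEO4 and between 506 and 551 CPM in PEO1 BRCA+. HOXB4, the 1 member not called and named after its values were seen, differed by 0.94 (adjusted p = 3.5e-07). In position, 7 consecutive tested genes of the HOXC cluster (chromosome 12, 53938831 to 54056030) and 6 of the HOXA cluster (chromosome 7, 27092993 to 27179861) were all lower. Exons of neighbouring HOX genes and their antisense genes overlap: 2 of the 7 HOXC genes and 1 of the 6 HOXA genes share no exon bases with another gene of the table, so the values of neighbours are not independent.

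Genes of squamous differentiation and the cornified envelope, the crosslinked protein coat of skin cells, were mostly higher in PEO4. Of 28 tested, 17 were higher and 4 lower, with a median log2 fold change of 1.56. TGM3, a transglutaminase that crosslinks the envelope, had 0.05105, 0.0886 and 0.328 CPM in PEO1 BRCA+ against 648, 227 and 545 CPM in PEO4 (log2 fold change 11.501, standard error 0.879, adjusted p = 3.4e-04). LORICRIN, its main substrate, had 0 counts in PEO1 BRCA+ and 91.2, 39.2 and 49.7 CPM in PEO4, at least 423-fold higher (adjusted p = 0.0104, bound at 3 counts per PEO1 BRCA+ library). The spread in PEO4 was wide, with replicate 2 lowest, and the LORICRIN call was lost when replicate 2 or replicate 3 of PEO4 was left out. SPINK5, an inhibitor of epidermal kallikreins, had 3 counts in all in PEO1 BRCA+ and 555 in PEO4, a ratio of 195 (95% Clopper-Pearson interval 66.3 to 947, counting error only; adjusted p = 1.5e-07). TGM1, the keratinocyte transglutaminase, rose from 86.2 ± 5.94 CPM to 374 ± 62.6 CPM (log2 fold change 2.12, adjusted p = 3.4e-07).

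Some basal and early squamous genes were lower. KRT5, the basal keratin, had 1453, 1281 and 1573 CPM in PEO1 BRCA+ against 259.8, 108 and 193 CPM in PEO4 (log2 fold change -2.94, standard error 0.3705, adjusted p = 0.00184). KRT16, a stress keratin, and KLK5, an epidermal kallikrein, had log2 fold changes of -1.73 and -1.28 (adjusted p = 0.0118 and 0.00277). IVL (involucrin), an early envelope protein, differed by -1.01 (adjusted p = 0.0379). The KRT16 call was lost without replicate 2 of PEO4, and the IVL call without replicate 1 or 3 of PEO1 BRCA+ or replicate 2 or 3 of PEO4. TP63, the master factor of squamous fate, did not pass, with 7.66, 7.79 and 6.13 CPM in PEO1 BRCA+ against 4.95, 5.36 and 6.98 CPM in PEO4 (log2 fold change -0.32, adjusted p = 0.12). Replicate 1 of PEO4 was the highest PEO4 library for 21 of the 28 members and replicate 2 the lowest for 18, against 4315 and 5746 of 15726 tested genes. Without replicate 2 of PEO4 the list had 16 members higher and 2 lower. The summed level of the list overlapped between the lines, at 2905 to 4723 CPM in PEO4 and 3361 to 3663 CPM in PEO1 BRCA+. Of 7 tested kallikrein proteases, 3 were higher (KLK7, KLK8 and KLK11, log2 fold changes 1.53, 1.09 and 1.37, adjusted p = 2.7e-07, 4.6e-04 and 1.7e-04) and 1, KLK5, was lower. KLK6, which is elevated in serous carcinoma, had 639, 639 and 635 CPM in PEO1 BRCA+ against 329, 336 and 328 CPM in PEO4, just under the fold limit at -0.95 (adjusted p = 9.8e-08). Without replicate 3 of PEO4 the call of KLK8 was lost. The summed level of the kallikrein list was lower in PEO4, at 1006 to 1402 CPM against 1819 to 1836 CPM in PEO1 BRCA+.

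Mesenchymal markers were lower on balance, but VIM, the defining intermediate filament, was not. Of 20 tested, 3 were higher and 9 lower, with a median log2 fold change of -0.62. VIM had 13.9, 16.5 and 14.9 CPM in PEO1 BRCA+ against 8.92, 29.5 and 3.44 CPM in PEO4. The groups overlapped, with replicate 2 of PEO4 the highest of the 6 libraries and replicate 3 the lowest (log2 fold change -0.12, standard error 0.805, adjusted p = 0.9). FN1 (fibronectin) had 606, 739.95 and 960.3 CPM in PEO1 BRCA+ against 114, 163 and 157 CPM in PEO4 (log2 fold change -2.41, standard error 0.228, adjusted p = 2.3e-04). THY1, a surface glycoprotein of stromal cells, had 119, 135 and 111 CPM in PEO1 BRCA+ against 5.69, 15.3 and 6.83 CPM in PEO4 (log2 fold change -3.73, adjusted p = 0.00104). CDH11, the osteoblast cadherin, had 1543 counts over the PEO1 BRCA+ libraries and 3 over those of PEO4, a ratio of 488 (95% Clopper-Pearson interval 167 to 2371, counting error only; adjusted p = 7.9e-11). FOXC2, a mesenchymal transcription factor, had 84 counts against 0 and was at least 8.904-fold lower (adjusted p = 8.9e-05). ZEB1, a repressor of CDH1, had under 2 CPM in every library and did not pass (adjusted p = 0.77), and CDH2 (N-cadherin) differed by -0.60 (adjusted p = 0.0278).

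The mesenchymal genes that were higher in PEO4 included a protease. MMP14, a membrane-bound collagenase that also activates MMP2, had 0.153, 0.266 and 0.0936 CPM in PEO1 BRCA+ against 53.2, 51.5 and 71.8 CPM in PEO4 (log2 fold change 8.36, standard error 0.255, adjusted p = 2.8e-09). S100A4, a calcium-binding protein of motile cells, had a log2 fold change of 1.49 (adjusted p = 4.1e-05). Replicate 2 of PEO4 was the highest PEO4 library for 14 of the 20 mesenchymal markers, against 5362 of 15726 tested genes. The summed level of the list was between 382 and 504 CPM in PEO4 and between 1480 and 1792 CPM in PEO1 BRCA+, so the groups did not overlap. FN1, at the levels given above, was a large part of the PEO1 BRCA+ sum.

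Promoters were searched for the guanine runs that G-quadruplexes need. The motif was GGG or more, 4 times, with 1 to 7 bases of any kind between the runs, on either strand, in the 250 bases before and 50 after each RefSeq gene start. It was found in 24.1% of all 27305 promoters, 34% of those of tested genes, 35.4% of those of higher genes (451 of 1274), 40.4% of those of lower genes (538 of 1331) and 32.9% of those of genes not called. GC content differed between these sets, with medians of 64% in higher, 66.3% in lower and 65% in uncalled genes. Within GC bins, the shares in higher, lower and uncalled genes were 9.75%, 11.5% and 9.52% under 60% GC, 36.01%, 37.97% and 29.3% from 60 to 70% GC, and 65.1%, 67.6% and 59.6% over 70% GC. A match is a description of the sequence and does not show that a structure forms there. Promoters were searched for 11964 of the 15726 tested genes. Not every gene with a large change was searched, so a gene not named here is not shown to lack the motif. MMP14 (higher) and TSHZ3 (lower) are examples from the 10 genes with the largest change in each direction. TSHZ3, a zinc finger homeobox gene, had 1300 counts in PEO1 BRCA+ and 1 in PEO4. Both genes have the motif before their start. Their 250 bases before the start are printed to show how the runs are placed, 5′ to 3′ on the gene's strand, with 1 match of the motif in capitals, from RefSeq on GRCh38.p14. MMP14 is on the plus strand, where the motif reads on the opposite strand as runs of C, and TSHZ3 on the minus strand, with the match in capitals on its own strand.
MMP14, chr14:22836335-22836584: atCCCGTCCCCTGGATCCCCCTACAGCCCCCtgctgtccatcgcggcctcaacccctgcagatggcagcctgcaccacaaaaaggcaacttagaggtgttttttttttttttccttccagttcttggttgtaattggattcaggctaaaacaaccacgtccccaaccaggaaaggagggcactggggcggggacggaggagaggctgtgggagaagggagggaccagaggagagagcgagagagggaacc
TSHZ3, chr19:31349437-31349686: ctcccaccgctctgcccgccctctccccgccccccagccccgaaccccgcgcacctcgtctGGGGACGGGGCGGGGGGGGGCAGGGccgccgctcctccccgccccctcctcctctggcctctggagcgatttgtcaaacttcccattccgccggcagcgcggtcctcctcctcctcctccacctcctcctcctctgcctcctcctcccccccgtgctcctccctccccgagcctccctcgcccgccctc
The match in capitals spans bases 248 to 220 before the start in MMP14 and bases 189 to 165 in TSHZ3. The TSHZ3 stretch also holds matches on the opposite strand, as runs of C left in lower case.

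Epithelial identity was measured in the same libraries, as a check of the label. CDH1 (E-cadherin) had 154, 172 and 158 CPM in PEO1 BRCA+ against 143, 123 and 163 CPM in PEO4, and EPCAM had 346, 344 and 308 CPM in PEO1 BRCA+ against 427, 442 and 408 CPM in PEO4. Both epithelial adhesion genes were abundant in every library, with log2 fold changes of -0.17 and 0.35 (adjusted p = 0.14 and 8.9e-04). ESRP1, an epithelial splicing factor, and GRHL2, an epithelial transcription factor, differed by 0.50 and 0.19 (adjusted p = 4.4e-05 and 0.0923). Of 22 tested epithelial markers, 3 were called higher and 0 lower by edgeR (3 were lower at an unadjusted p under 0.05, and DESeq2 called 0 lower). The 3 were TJP3, a tight junction scaffold, OVOL1, a repressor of mesenchymal genes, and PRSS8, a channel-activating protease, at 2.59, 1.63 and 1.12 (adjusted p = 1.2e-07, 2.4e-07 and 2.7e-05).

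Ovarian carcinoma markers such as PAX8, WT1 and MUC16 were present in both lines, and several markers were higher in PEO4. Of 15 tested, 6 were higher and 2 lower, with a median log2 fold change of 0.76. FOLR1 was near 0 in PEO1 BRCA+ and MECOM in PEO4. SOX17 had 0 counts in all 6 libraries and MUC1 at most 4 in any library, so neither was tested. PAX8, a Müllerian lineage factor, had 188 ± 16.1 CPM in PEO1 BRCA+ against 242 ± 18.6 CPM in PEO4. WT1, a marker of serous carcinoma, had 108 ± 5.69 CPM in PEO1 BRCA+ against 179 ± 8.31 CPM in PEO4. Both were under the fold limit (log2 fold changes 0.37 and 0.73, adjusted p = 0.00177 and 1.9e-06). MUC16, which encodes the CA125 antigen, had 284, 423 and 617 CPM in PEO1 BRCA+ against 400.4, 415 and 943 CPM in PEO4 and overlapped between the lines (adjusted p = 0.52). FOLR1, the folate receptor that antibody drugs target, had 0.102, 0.0886 and 0.1404 CPM in PEO1 BRCA+ against 38.04, 25.4 and 44.98 CPM in PEO4, or 7 counts over the PEO1 BRCA+ libraries against 2199 (log2 fold change 8.28, standard error 0.377, adjusted p = 3.4e-07). BCAM, a laminin receptor of serous carcinoma, had 359.7, 315 and 351 CPM in PEO1 BRCA+ against 1765, 1474 and 2037 CPM in PEO4 (log2 fold change 2.36, adjusted p = 3.7e-08). EMX2, a Müllerian homeobox gene, and MSLN (mesothelin) had log2 fold changes of 2.27 and 1.35 (adjusted p = 9.2e-10 and 7.4e-07). KRT7, a simple-epithelium keratin, had 3516, 3480.2 and 3616 CPM in PEO1 BRCA+ against 1217, 1083 and 1065 CPM in PEO4 (log2 fold change -1.66, adjusted p = 6.2e-09), and MECOM, a transcription factor amplified in serous carcinoma, had 2.25, 3.19 and 2.71 CPM in PEO1 BRCA+ against 0.0924, 0.268 and 0.1496 CPM in PEO4 (log2 fold change -3.99, adjusted p = 2.1e-06).

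Defining markers of other cell types were at or near 0. Of 9 immune markers, 6 had 0 counts in all 6 libraries, PTPRC and CD3E among them. The immune sum was between 41.4 and 45.3 CPM in PEO1 BRCA+ and between 39.03 and 61.2 CPM in PEO4, of which CD68, a lysosomal protein, made up at least 34.9 CPM in every library. Endothelial markers summed to at most 5.32 CPM in any library. Fibroblast markers summed to between 13.4 and 17.3 CPM in PEO1 BRCA+ and between 38.7 and 42.95 CPM in PEO4. DCN, LUM, PDGFRA and PDGFRB had at most 9 counts in any library, and the fibroblast markers called higher were the collagens COL1A1, COL1A2 and COL3A1. COL1A1 had 5.36, 7.22 and 5.24 CPM in PEO1 BRCA+ against 25.8, 14.6 and 30.6 CPM in PEO4 (log2 fold change 1.99, adjusted p = 0.00151), while FAP, the fibroblast activation protease, was lower in PEO4 (log2 fold change -3.47, adjusted p = 2.6e-06).

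**Figure D3:**
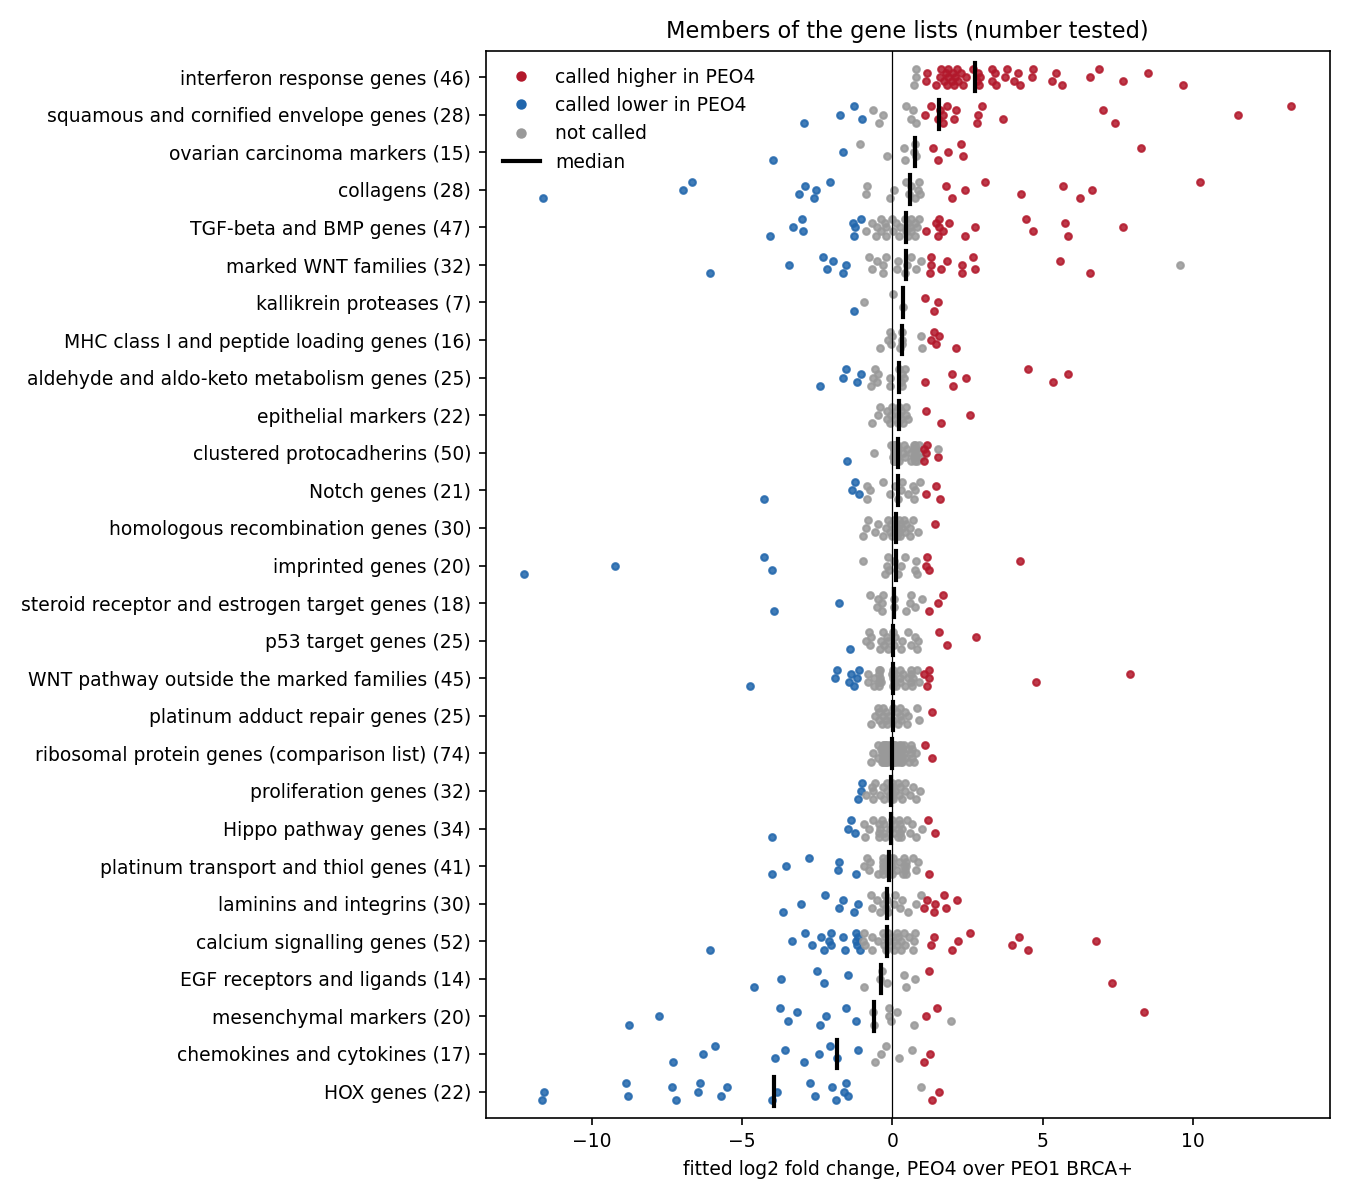
Fitted log2 fold change of PEO4 over PEO1 BRCA+ for the tested members of the 28 gene lists with at least 7 tested members, with the number tested in brackets. Each point is 1 gene, red where called higher, blue where called lower and grey where not called, and black bars are medians. Interferon response genes have the highest median (2.74) and HOX genes the lowest (-3.94).

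Collagen genes differed in both directions. Of 28 tested, 9 were higher and 8 lower, with a median log2 fold change of 0.58. The basement membrane genes COL4A1 and COL4A2, which lie head to head on chromosome 13, were lower. COL4A1 had 182, 196 and 198 CPM in PEO1 BRCA+ against 1.43, 1.98 and 2.19 CPM in PEO4 (log2 fold change -6.69, standard error 0.118, adjusted p = 1.6e-11), and COL4A2 had 366, 414 and 412 CPM in PEO1 BRCA+ against 2.496, 3.91 and 3.09 CPM in PEO4 (log2 fold change -6.98, adjusted p = 3.9e-11). COL22A1, a collagen of tissue junctions, had 1214 counts over the PEO1 BRCA+ libraries and 0 in PEO4, at least 128-fold lower (adjusted p = 5.1e-09). Among fibrillar collagens, COL3A1 had 0 counts in PEO1 BRCA+ and 441 over the PEO4 libraries, at least 51.4-fold higher (adjusted p = 6.0e-08). COL5A2 had 0.613, 0.487 and 0.655 CPM in PEO1 BRCA+ against 57.8, 17.05 and 59.2 CPM in PEO4 (log2 fold change 6.25, standard error 0.8204, adjusted p = 0.00237), with replicate 2 of PEO4 lowest. COL1A2 showed the reverse order within PEO4, with 0.102, 0.0886 and 0.0468 CPM in PEO1 BRCA+ against 5.41, 18.4 and 1.94 CPM in PEO4 (adjusted p = 0.0171), and its call was lost whichever PEO1 BRCA+ library was left out.

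Laminins and integrins, the matrix proteins and receptors of epithelial attachment, also differed in both directions. Of 30 tested, 7 were higher (23.3%) and 7 lower (23.3%). LAMA3 and LAMB3, laminin chains of squamous epithelia, were lower. LAMB3 had 299 ± 25.3 CPM in PEO1 BRCA+ against 136 ± 34.5 CPM in PEO4 (log2 fold change -1.14, adjusted p = 0.00249) and LAMA3 had 822 ± 71.2 CPM in PEO1 BRCA+ against 263 ± 132 CPM in PEO4 (log2 fold change -1.65, adjusted p = 0.0224). The LAMA3 call was lost when any PEO1 BRCA+ library or replicate 1 of PEO4 was left out, and with the replicate block, and the LAMB3 call without replicate 3 of PEO4. LAMA5, the laminin chain bound by BCAM, was higher with 507, 611 and 621 CPM in PEO1 BRCA+ against 1445, 1495 and 1731 CPM in PEO4 (log2 fold change 1.43, adjusted p = 1.7e-07). ITGB4, the integrin subunit of hemidesmosomes, had 335, 364 and 369 CPM in PEO1 BRCA+ against 1173, 1093 and 1273 CPM in PEO4 (log2 fold change 1.73, standard error 0.0793, adjusted p = 5.6e-09). ITGA9 rose by 2.14 on the log2 scale, and ITGA4, a leukocyte-type integrin chain, had a log2 fold change of -3.63 (adjusted p = 6.1e-08 and 5.3e-08).

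WNT signalling genes were tested as the families that the study marked on these samples and as a wider list. Of 32 tested members of the marked families, 11 were higher and 7 lower, and that choice makes the count no independent evidence of a direction. FZD10, a frizzled receptor, had 7.61, 11.2 and 5.76 CPM in PEO1 BRCA+ against 0.0924, 0.107 and 0.1496 CPM in PEO4 (log2 fold change -6.07, adjusted p = 1.3e-07), and the ligand gene WNT5B had 8.47, 10.1 and 9.64 CPM in PEO1 BRCA+ against 1.99, 1.61 and 2.04 CPM in PEO4 (log2 fold change -2.31, adjusted p = 2.4e-07). Of 45 tested WNT genes outside those families, 6 were higher (13.3%) and 8 lower (17.8%), with a median log2 fold change of 0.02. Inhibitors of the pathway went both ways, with APCDD1, AXIN2 and ZNRF3 higher and DKK1 lower. APCDD1, which binds WNT ligands and LRP receptors, had 1.23, 1.06 and 0.702 CPM in PEO1 BRCA+ against 233, 188 and 304 CPM in PEO4 (log2 fold change 7.92, standard error 0.296, adjusted p = 1.9e-06). AXIN2, a scaffold for the degradation of beta-catenin, had 0.9699, 1.02 and 1.08 CPM in PEO1 BRCA+ against 31.99, 11.7 and 40.8 CPM in PEO4 (log2 fold change 4.78, standard error 0.6698, adjusted p = 0.00261). ZNRF3, a ligase that removes frizzled receptors, had a log2 fold change of 1.23 (adjusted p = 3.7e-04). CTNNB1, which encodes beta-catenin, differed by -0.41 (adjusted p = 2.3e-04). DKK1, a secreted antagonist, and ROR1, a receptor for WNT5A, were lower, with log2 fold changes of -1.86 and -1.93 (adjusted p = 0.00656 and 4.4e-07).

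The TGF-beta and BMP list had 14 members higher and 8 lower of 47 tested, with a median log2 fold change of 0.46. BMP4, a ligand of the BMP arm, had 1.58, 1.46 and 1.36 CPM in PEO1 BRCA+ against 81.2, 35.4 and 120.04 CPM in PEO4 (log2 fold change 5.75, standard error 0.683, adjusted p = 0.00168). ID1, a direct BMP target, had 174, 147 and 189 CPM in PEO1 BRCA+ against 505, 533 and 453 CPM in PEO4 (log2 fold change 1.55, adjusted p = 1.2e-07). INHBA, which encodes the activin A subunit, had 142, 131 and 152 CPM in PEO1 BRCA+ against 13.2, 28.5 and 10.6 CPM in PEO4 (log2 fold change -3.03, standard error 0.414, adjusted p = 0.0027), and THBS1, which activates latent TGF-beta, had 450.3, 493 and 526 CPM in PEO1 BRCA+ against 25.3, 41.5 and 20.8 CPM in PEO4 (log2 fold change -4.07, adjusted p = 1.3e-04). Of the TGF-beta ligands, TGFB1 was higher at 1.11 and TGFB2 lower at -1.23 (adjusted p = 2.9e-06 and 3.0e-05). The TGFB1 call was lost without replicate 1 of PEO1 BRCA+, and 34.2% of the exon bases of TGFB2 lie in antisense or overlapping genes of the table.

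Genes of the EGF receptor family differed in both directions. Of 14 tested receptors and ligands, 2 were higher (14.3%) and 5 lower (35.7%). EGFR had 507, 549 and 529.97 CPM in PEO1 BRCA+ against 97.6, 136 and 90.02 CPM in PEO4 (log2 fold change -2.29, standard error 0.153, adjusted p = 5.7e-06), and its ligand gene AREG had 95.97, 86.3 and 96.2 CPM in PEO1 BRCA+ against 9.06, 6.49 and 5.69 CPM in PEO4 (log2 fold change -3.71, adjusted p = 2.3e-08). ERBB4, another receptor of the family, had 0.05105, 0.0886 and 0.328 CPM in PEO1 BRCA+ against 28.4, 22.9 and 25.4 CPM in PEO4 (log2 fold change 7.29, standard error 0.272, adjusted p = 1.8e-09), so that it went from near 0 to a clear level in all 3 PEO4 libraries. ERBB3 was higher at 1.23, and ERBB2 differed by 0.38 (adjusted p = 0.00527 and 0.00112).

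Other signalling lists also held changes in both directions. Of 34 tested Hippo genes, 2 were higher (TEAD3 and AJUBA, log2 fold changes 1.404 and 1.196) and 4 lower. TEAD2, a DNA-binding partner of YAP1, had 4.85, 6.42 and 3.42 CPM in PEO1 BRCA+ against 0.231, 0.268 and 0.399 CPM in PEO4 (log2 fold change -4.01, adjusted p = 1.0e-06), while YAP1 itself differed by 0.65 (adjusted p = 4.5e-06). Of 21 Notch genes, 3 were higher and 4 lower. JAG1, a Notch ligand, had 25.4, 23.1 and 29.4 CPM in PEO1 BRCA+ against 1.11, 1.39 and 1.496 CPM in PEO4 (log2 fold change -4.28, standard error 0.1595, adjusted p = 1.2e-09), and the receptor gene NOTCH1 differed by -0.76 (adjusted p = 0.0386). Of 52 calcium signalling genes, 9 were higher and 16 lower, with a median log2 fold change of -0.18. PLCB4, a phospholipase that releases stored calcium, had 223, 202 and 216 CPM in PEO1 BRCA+ against 23.9, 20.9 and 18.9 CPM in PEO4 (log2 fold change -3.33, adjusted p = 1.4e-10), and ADRA1D, an adrenergic receptor, went from 16 counts over the PEO1 BRCA+ libraries to 359 over those of PEO4 (log2 fold change 4.52, adjusted p = 1.5e-07). RYR2, a calcium release channel, had 97 counts over the PEO1 BRCA+ libraries and 1 in PEO4 (ratio 92.1, 95% Clopper-Pearson interval 16.1 to 3676, counting error only; adjusted p = 4.6e-06). Of 18 steroid receptor and estrogen target genes, 3 were higher and 2 lower. ESR1, the estrogen receptor alpha gene, had 117, 118 and 133 CPM in PEO1 BRCA+ against 236, 242 and 241 CPM in PEO4, just under the fold limit at 0.97 (adjusted p = 2.0e-07).

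Metabolic and imprinted genes held some of the largest single differences. Of 25 tested aldehyde and aldo-keto metabolism genes, 7 were higher and 5 lower, and 3 were lower without replicate 3 of PEO1 BRCA+ or without replicate 3 of PEO4. ALDH1A3, which makes retinoic acid, had 3122, 2975 and 3236 CPM in PEO1 BRCA+ against 610.2, 776 and 378 CPM in PEO4 (log2 fold change -2.403, standard error 0.282, adjusted p = 8.9e-04). AKR1D1, a steroid 5-beta-reductase, had 1.99, 1.95 and 1.78 CPM in PEO1 BRCA+ against 69.9, 105 and 55.9 CPM in PEO4 (log2 fold change 5.33, adjusted p = 3.2e-05), and AKR1B10, a reductase of retinal and other aldehydes, had 0.357, 0.133 and 0.328 CPM in PEO1 BRCA+ against 19.04, 14.2 and 13.4 CPM in PEO4 (log2 fold change 5.83, adjusted p = 6.5e-09). In both aldo-keto genes the lines did not overlap. Of 20 imprinted genes, 4 were higher (20%) and 4 lower (20%). DIRAS3, a maternally imprinted growth suppressor of ovarian epithelium, had 33.1, 36.2 and 31.8 CPM in PEO1 BRCA+ against 1.29, 2.73 and 1.297 CPM in PEO4 (log2 fold change -4.26, adjusted p = 1.4e-07). MEST and SGCE, imprinted genes of chromosome 7, were higher by 1.15 and 1.204 on the log2 scale (adjusted p = 5.3e-08 and 6.7e-07). Of 50 clustered protocadherin genes, 5 were higher (10%) and 1 lower (2%), with 3 higher when replicate 1 of PEO4 was left out. Of 48 cancer-testis antigen genes 1 had enough counts to test and was not called.

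Proliferation, p53 and ribosomal lists changed little. Of 32 proliferation genes, 0 were higher and 3 lower by edgeR (9 were higher at an unadjusted p under 0.05, and DESeq2 called 0 higher), with a median log2 fold change of -0.04. MKI67, the Ki-67 antigen gene, had 339, 345 and 384 CPM in PEO1 BRCA+ against 199.7, 263 and 221 CPM in PEO4 (log2 fold change -0.64, adjusted p = 1.5e-04), and TOP2A, a topoisomerase of dividing cells, had 411, 400.02 and 360.4 CPM in PEO1 BRCA+ against 375, 403 and 386 CPM in PEO4 (log2 fold change -0.01, adjusted p = 0.9). PCNA, the replication clamp, had a log2 fold change of -1.16 (adjusted p = 7.7e-08). FOXM1 and GINS2 lay near the fold limit, at -1.06 and -1.01 (adjusted p = 3.0e-07 and 1.1e-06), and were lost without replicate 3 of PEO4. Of 25 p53 target genes, 3 were higher and 1 lower. CDKN1A, the p21 cell cycle inhibitor gene, had 10.4, 8.81 and 9.22 CPM in PEO1 BRCA+ against 32.6, 22.3 and 27.5 CPM in PEO4 (log2 fold change 1.54, standard error 0.1401, adjusted p = 2.1e-06), while MDM2 differed by -0.14 (adjusted p = 0.16). Of 74 ribosomal protein genes, a comparison list, 2 were higher and 0 lower by edgeR (26 were lower at an unadjusted p under 0.05, and DESeq2 called 0 lower). They were RPL8, with 1158, 1181 and 1231 CPM in PEO1 BRCA+ against 2835, 3172 and 2890.1 CPM in PEO4, and RPL38, with 73.2, 70.5 and 70.3 CPM in PEO1 BRCA+ against 149, 154 and 154 CPM in PEO4 (log2 fold changes 1.32 and 1.09, adjusted p = 2.9e-08 and 2.8e-08).

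The genes with the largest fitted fold changes among genes whose mean log2 CPM was at least 3 were close to silent in 1 line. OBP2B, a lipocalin gene on chromosome 9, had 0.153, 0.0886 and 0.281 CPM in PEO1 BRCA+ against 97.02, 146 and 126 CPM in PEO4 (log2 fold change 9.42, standard error 0.296, adjusted p = 8.2e-08). ESPN, an actin-bundling protein of hair cells and microvilli, had 4 counts over the PEO1 BRCA+ libraries and 1570 over those of PEO4 (log2 fold change 8.56, adjusted p = 4.6e-10). PROM1, the CD133 surface marker gene, had 91.1, 99.9 and 83.02 CPM in PEO1 BRCA+ against 0.0924, 0.0536 and 0.299 CPM in PEO4 (log2 fold change -9.201, standard error 0.211, adjusted p = 8.4e-11). EPB41L3, a membrane skeleton protein, had 1334 counts over the PEO1 BRCA+ libraries and 0 in PEO4 (at least 140.2-fold lower, bound at 3 counts per PEO4 library; adjusted p = 1.8e-09). Beyond a log2 fold change of 4 there were 206 genes higher and 207 lower, and 109 of all higher genes had at most 3 counts in every PEO1 BRCA+ library, as 140 of the lower genes had in every PEO4 library.

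On the linear scale the largest CPM differences were in abundant genes, on a scale that is not corrected for transcript length. UCA1, a long non-coding RNA of bladder and ovarian carcinoma, had 139.8, 139.7 and 135 CPM in PEO1 BRCA+ against 1497, 1404 and 2149 CPM in PEO4 (log2 fold change 3.61, standard error 0.1703, adjusted p = 8.3e-07). HSP90AB1, a constitutive chaperone, had 1713 ± 133 CPM in PEO1 BRCA+ against 3555 ± 405 CPM in PEO4 (log2 fold change 1.05, adjusted p = 1.5e-06), a call that was lost without replicate 2 of either line. LOXL4, which crosslinks collagen, had 163, 174 and 180.3 CPM in PEO1 BRCA+ against 1038, 737 and 1390.4 CPM in PEO4 (log2 fold change 2.61, adjusted p = 2.9e-04). In the other direction, the cytoskeleton genes ACTB and FLNA had log2 fold changes of -1.15 and -1.22 (adjusted p = 1.1e-06 and 1.6e-06). ACTB, often used as a reference gene, thus had 3695 ± 59.6 CPM in PEO1 BRCA+ against 1659.9 ± 241 CPM in PEO4. KRT81, a hair keratin next to KRT7 on chromosome 12, had 2324, 2532 and 2394 CPM in PEO1 BRCA+ against 78.3, 93.8 and 128 CPM in PEO4 (log2 fold change -4.597, standard error 0.189, adjusted p = 5.2e-07), and CLDN1, a tight junction claudin, had 969, 849 and 1013 CPM in PEO1 BRCA+ against 106, 102 and 72.5 CPM in PEO4 (log2 fold change -3.34, adjusted p = 5.1e-07). Keratin, ribosomal protein, IFITM and AKR1B genes, ACTB and HSP90AB1 have close copies or pseudogenes among which reads could be split, and an antisense gene overlaps KRT7.

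Called genes were also placed along the chromosomes by their RefSeq position on GRCh38. Over 13538 tested protein-coding genes, 11.2% were higher and 11.7% lower. Chromosome 6 held 25.5% higher genes (151 of 593) and chromosome 8 held 22.6% (104 of 460). Chromosome 22 held the largest share of lower genes at 24.3% (75 of 309), followed by chromosome 18 at 20.3% (39 of 192). The longest stretch of consecutive tested genes called in 1 direction was 24 genes at the end of the long arm of chromosome 8 (144358552 to 144950880), all higher with log2 fold changes from 1.06 to 3.94 and a median of 1.71. It includes RPL8 and RECQL4, a helicase of replication. RECQL4 had 67.8, 60.9 and 74.5 CPM in PEO1 BRCA+ against 233, 241 and 225 CPM in PEO4 (log2 fold change 1.78, standard error 0.0802, adjusted p = 4.8e-09). SLC39A4, a zinc importer, had the largest change of the stretch, with 18.7, 17.4 and 20.4 CPM in PEO1 BRCA+ against 275, 369 and 225 CPM in PEO4 (log2 fold change 3.94, adjusted p = 9.6e-06). Of its 24 genes, 11 share no exon bases with another gene of the table, and the others could have been counted in part from a neighbour's reads.

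Other stretches of 15 (chromosome 8, 142611049 to 143541447) and 9 (chromosome 8, 143977158 to 144118328) higher genes lay beside it, with median log2 fold changes of 1.97 and 1.63. PSCA, the prostate stem cell antigen gene of the Ly6 family, lies in the stretch of 15 and had 6 counts over the PEO1 BRCA+ libraries against 150 over those of PEO4 (log2 fold change 4.61, adjusted p = 2.2e-04). Among lower genes, a stretch of 8 on chromosome 1 (241593124 to 244709033) had a median log2 fold change of -1.62 and contains EXO1, a DNA end-resection nuclease, with 47.2, 45.1 and 43.7 CPM in PEO1 BRCA+ against 17.5, 15.1 and 15.4 CPM in PEO4 (log2 fold change -1.499, adjusted p = 3.6e-08). A stretch of 7 on chromosome 4 (73571550 to 74316789) contains CXCL8 and CXCL1. Copy number was not measured in these files, and its part in these stretches was not tested.

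**Figure D4:**
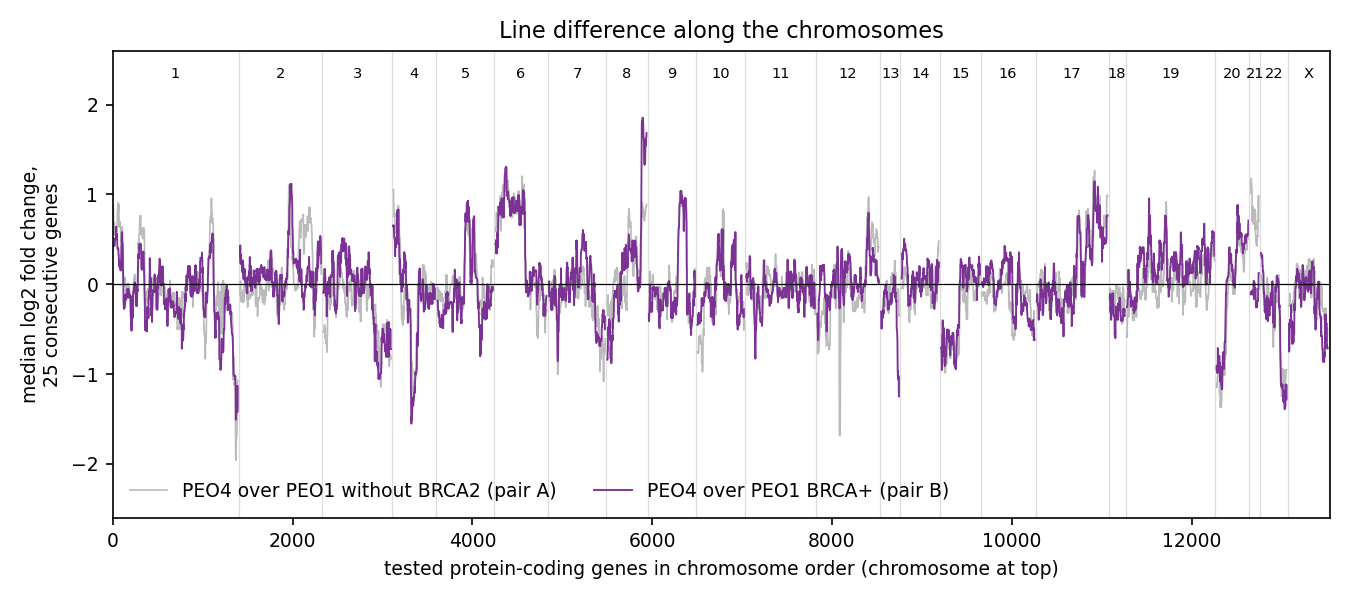
Median log2 fold change of 25 consecutive tested protein-coding genes, in chromosome order, for PEO4 over PEO1 BRCA+ (pair B, purple) and for PEO4 over BRCA2-deficient PEO1 (pair A, grey). The purple line reaches its highest value, 1.85, on chromosome 8 and its lowest, -1.55, on chromosome 4. On chromosome 21 the medians over its genes are -0.10 in pair B and 0.80 in pair A.

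The same line comparison in pair A has a PEO1 that lacks functional BRCA2, and it shares no library with pair B. The pairs also differ in sodium pyruvate in the medium, which pair A received, and lie in separate count tables, so BRCA2 status and pair cannot be told apart. The tables differed in which genes held counts, for a reason that was not tested. In all, 201 of 11788 genes with over 10 CPM in pair B, summed over the means of both lines, were at 0 in all 6 libraries of pair A, and 140 of the 156 of these that matched GENCODE share exon bases with another gene, against 5494 of 14939 matched tested genes. Genes named as antisense took 0.699% of CPM in PEO1 BRCA+ and 0.675% in PEO4 of pair B, against 0.158% and 0.166% in pair A. Of the 1871 genes higher in pair B, 973 (52%) were called higher in pair A and 74 were called lower there. Of the 1857 lower genes, 1146 (61.7%) were called lower in pair A and 43 higher. Those 973 and 1146 genes are 46.6% of the 2089 higher and 52.4% of the 2187 lower genes of pair A.

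A test of the difference between the pairs called 2328 of 16888 genes (13.8%), 1351 with a more positive line difference in pair B and 977 with a more negative one. Among the 9445 genes that share no exon bases with another gene, 1407 (14.9%) were called. Interferon genes kept their direction, with all 43 called members also above 0 in pair A. The same held for 1577 of all 1871 genes called higher in pair B (84.3%). UCA1 differed more in pair B, by 3.61 against 1.33 on the log2 scale (difference 2.27, standard error 0.209, adjusted p = 2.1e-06). VIM, in contrast, had no clear difference in pair B. In pair A it had 314, 282 and 284 CPM in PEO1 and 0.359, 0.962 and 0.446 CPM in PEO4, against the overlapping values of pair B above (difference 8.91, standard error 1.002, adjusted p = 1.8e-04). TP63 was 4.199 in pair A and -0.32 in pair B (difference -4.53, adjusted p = 2.3e-06), and IL6 was 0.9996 and -2.94 (difference -3.95, adjusted p = 2.2e-05). BMP4 was 0.03 and 5.75 (difference 5.6999, adjusted p = 0.00167), and BRCA2 0.70 and -0.01 (difference -0.72, adjusted p = 0.00983, inside the limit of 1). The 24-gene stretch of chromosome 8 had a median of 0.89 in pair A. There 23 of its 24 genes were above 0, against 84.3% of all genes called higher in pair B. Chromosome 21 had a median of 0.80 in pair A and -0.10 in pair B.

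**Figure D5:**
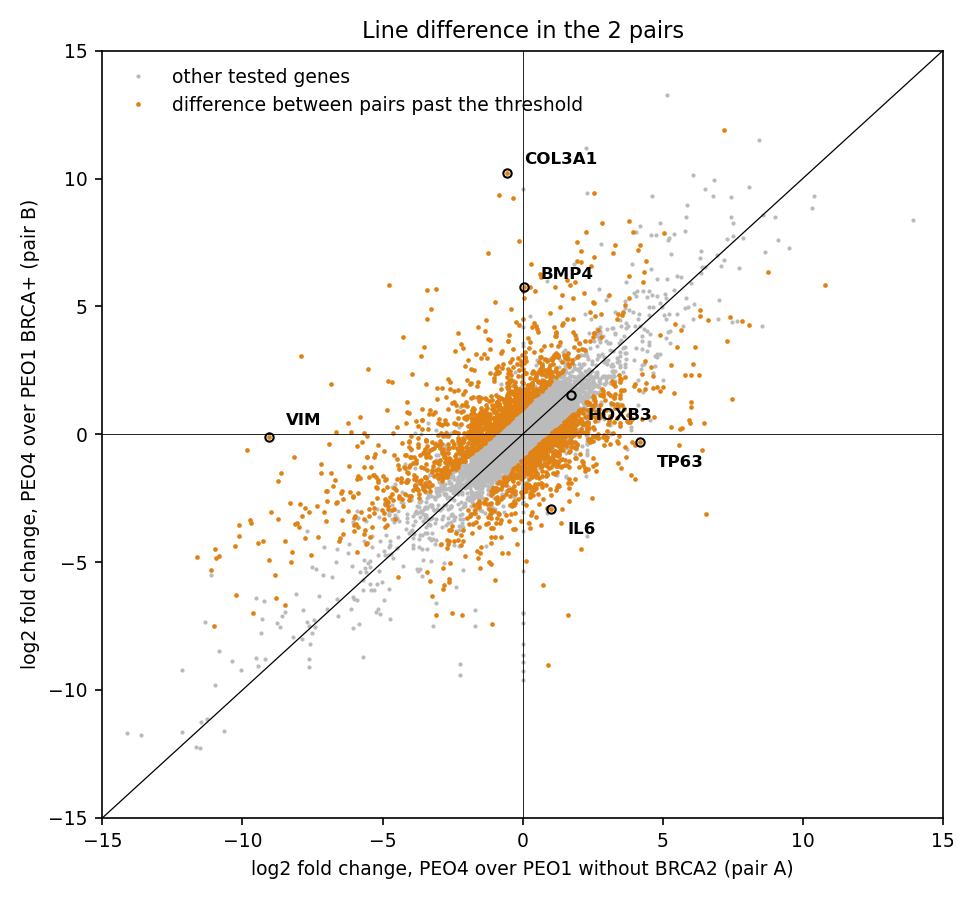
Log2 fold change of PEO4 over PEO1 BRCA+ (pair B, vertical) against that of PEO4 over BRCA2-deficient PEO1 (pair A, horizontal) for genes tested in both, with the line of equality. Orange points passed the test of the difference between the pairs and grey points did not. VIM lies far left near 0 on the vertical axis, and HOXB3 lies above 0 on both axes.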

How the data were processed

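Polyadenylated RNA was sequenced in paired-end mode by the study. The authors deposited raw counts per gene, 1 table per pair of lines. The submitters' processing notes name FastQC, fastp, STAR, featureCounts and the hg38 build. Versions, the annotation and the strand setting are not given in the sources used here, nor is the library kit of pair B. A line of the table without readable counts was left out, and 0 sample columns were unmapped.

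The 6 libraries were fitted with edgeR 4.0.16 in R 4.3.3 (robust quasi-likelihood F test, TMM scaling, no replicate block). Genes were kept by filterByExpr with a minimum count of 10 and a minimum total of 15. Calls needed an adjusted p (Benjamini-Hochberg) under 0.05 and a log2 fold change beyond 1 in size. Both pairs were fitted in 1 model of 12 libraries for the difference between them. Log2 CPM values for the correlations, the SDs and the permutation test used a prior count of 2. Fitted fold changes used the default prior count of edgeR. Bounds on folds used 3 counts per library, and intervals were 95% Clopper-Pearson intervals, which cover counting error only.

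Gene lists and the comparison were chosen with earlier results of these data known. Named were BRCA2, the first 4 members of each list, up to 3 called members with the largest change in each direction, the 10 genes with the largest change in log2 and in CPM each way, and members of the longest stretches. Of 15726 tested genes, 15477 matched RefSeq symbols, which gave positions and promoters, and 14939 matched GENCODE release 44, which gave shared exon bases. The edgeR code was tested on simulated data. DESeq2 1.42.0, other scalings and filters, a replicate block and the removal of each library were tried as alternatives. No replicate pair agreed within sampling noise. Some genes are not reported here.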

Additional observations from a re-analysis of the deposited data

Results flagged for a closer look

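Each value below is the log2 fold change of PEO4 over PEO1 in pair B minus that in pair A, for genes named in the report whose line difference differed between the pairs by a test of that difference (edgeR, both pairs in 1 model, adjusted p under 0.05 and an absolute difference over 1). The share of all genes that passed was 13.8%. The adjusted p-values of the genes listed ran from 1.3e-10 to 0.049. BRCA2 status, medium and count table change together between the pairs and cannot be told apart. Where a line had no counts the fitted value depends on the prior count and is not a bound.

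Some genes had a log2 fold change over 1 in opposite directions. ADRA1D, an adrenergic receptor, was 4.52 in pair B and -3.43 in pair A, a difference of 7.95. COL1A1, a fibrillar collagen, was 1.99 in pair B and -1.84 in pair A, a difference of 3.82. TGFB1, a TGF-beta ligand, was 1.11 in pair B and -1.99 in pair A, a difference of 3.09.

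Other genes had a log2 fold change over 1 in pair B and within 1 of 0 in pair A, and their differences were COL3A1 11.51, BMP4 5.700, COL5A2 5.62, LOXL4 2.95, ID1 2.08, KLK11 2.07, ITGB4 1.73, ABCC3 1.69, TNFSF10 1.27, IL15 1.18, SGCE 1.06, LAMB3 -1.501, CLDN1 -2.59, ROR1 -2.65, AREG -3.46 and IL6 -3.95. The matrix genes COL3A1 and COL5A2, the BMP genes BMP4 and ID1 and the cytokine and growth factor genes IL6 and AREG are among them.

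The reverse was seen for genes within 1 of 0 in pair B and over 1 in pair A, with differences of VIM 8.91, ZEB1 1.98, CDH2 1.69, PAX8 -1.196 and TP63 -4.53. VIM, the intermediate filament of mesenchymal cells, and TP63, the squamous factor, lie at the ends of this list.

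In both pairs the next genes had the same direction. The change was larger in pair B for OBP2B 6.87, MMP14 4.58, SPINK5 4.19, AKR1B10 4.15, APCDD1 3.95, AXIN2 2.37, UCA1 2.27, PSCA 2.04, IFIT1 1.52, SLC39A4 1.38, BCAM 1.06, IL1R1 -1.24, JAG1 -1.37, THY1 -1.62, IL18R1 -2.53, TEAD2 -2.899, IL1R2 -2.94, CXCL8 -3.09, CXCL1 -3.09 and FZD10 -3.27, where each number is the difference. It was smaller in pair B for SLC22A3 6.56, FAP 6.19, MECOM 6.11, INHBA 5.95, TGFB2 4.95, WNT5B 4.15, ALDH1A3 3.64, DKK1 3.29, COL4A2 2.65, THBS1 2.42, IVL 1.91, KRT5 1.84, COL4A1 1.77, FN1 1.63, HOXB7 1.33, KRT81 1.29, DIRAS3 1.29, KRT7 1.05, ITGA9 -1.36 and MX1 -1.73.

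VIM, TGFB2, PAX8 and KRT7 are among the genes above whose exons overlap those of an antisense gene, and the part of counting in their differences was not tested.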

How the results depend on the processing

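The numbers of genes higher in PEO4 (1871) and genes lower in PEO4 (1857), and the number of called list members (309), stayed within 1.5 times of these values under other scalings (library totals, relative log expression, upper quartile), DESeq2, no filter on low counts, a filter of at least 1 CPM in 3 libraries and a fit with all 18 libraries. Leaving out each library in turn gave 1797 to 2013 higher, 1849 to 1987 lower and 295 to 317 called list members. A rule of adjusted p alone gave 5195 higher and 5087 lower, and an absolute log2 fold change over 2 gave 650 and 732, as those rules are wider and narrower by construction. With genes that share no exon bases, an alternative chosen after seeing the data, 1200 were higher and 1232 lower because fewer genes were tested. The test of the line difference in the other pair against that of pair B called 6138 by adjusted p alone and 1407 among genes that share no exon bases. Of 124 called genes named in the text, 110 kept their call in every one of 14 refits, and for the others the libraries are named in the report. DKK1 was lost with the replicate block alone, LAMA3 also with the block, and IVL also with no filter on low counts. Of 896 list counts compared, 16 moved by more than 1.5 times, those from leaving out a library being given in the report. With no filter 1 homologous recombination gene was lower, and with the 1 CPM filter 0 of the 2 higher endothelial markers were called. BRCA2 (log2 fold change -0.01) ran from -0.111 to 0.0629 when 1 library was left out, with 0.0377 without replicate 2 of PEO1 BRCA+ and 0.0165 and 0.0629 without replicates 1 and 2 of PEO4. Other uncalled genes changed sign in the same way: ZEB1 (range -0.483 to 0.0348, with 0.0286), TOP2A (-0.0716 to 0.02196, with 0.00956), VIM (-1.28 to 0.335, with 0.118) and MUC16 (-0.114 to 0.724), and the cause was not tested. The replicate block gave 1843 higher, 1852 lower, 304 list members and a BRCA2 log2 fold change of -0.00961. Same-numbered libraries correlated at 0.0716, -0.0462 and -0.0509 in their deviations from the line means. Differently numbered libraries ran from -0.0569 to 0.0951, so the shared number gave no sign of a pairing. Shared handling of the samples was not tested. At these depths a gene with 0 counts in a library could have up to 3, or 0.142 CPM in PEO1 BRCA+ against 0.1497 CPM in PEO4.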
